A study of Mus musculus and Mus musculus
Oryx dammah with 30 samples.

Results

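The 41 genes described here encode nucleolar proteins of ribosome biogenesis and protein subunits of ribonuclease P (RNase P). They were chosen by gene name from a fixed list, and all 41 were found among the 53023 genes of the four-cell and replication tables and the 55364 genes of the two-cell table. By known function, 3 are abundant nucleolar proteins, 4 belong to box C/D and 4 to box H/ACA small nucleolar ribonucleoproteins (snoRNPs), 17 to the small subunit processome, 6 to large subunit assembly and 7 to RNase P and the related RNase MRP.

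RNA-seq was performed on nuclear transfer (NT) embryos, in which nuclei of C2C12 cells, a myoblast cell line of the C3H mouse strain, were brought by fusion into mouse embryos. The recipients were embryos from C57BL/6 oocytes fertilised in vitro with DBA/2 sperm and treated with demecolcine (0.1 µg/ml), an inhibitor of microtubule assembly, which held them at G2/M. The NT embryos were cultured for 24 h in demecolcine and pooled, 3 to 5 embryos per library. Four-cell NT embryos, made 46 h after insemination, were cultured without or with α-amanitin, an inhibitor of RNA polymerase II, with 3 libraries each, here α-amanitin (−) and (+). Two-cell NT embryos, made from early (21 h) and late (30 h) two-cell recipients, were cultured without (6 libraries) or with α-amanitin (6 libraries). In the replication experiment, the groups D and DR (3 libraries each, all α-amanitin (−)) were four-cell NT embryos made before or after DNA replication, and the labels do not say which group is which. Reads of recipient and donor strains were not separated here, so embryo and donor transcripts of a gene count together. In pooled embryos, fewer cells and less RNA per cell cannot be told apart.

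Ribosomes are made in the nucleolus, where RNA polymerase I transcribes a long precursor of ribosomal RNA (rRNA). Box C/D snoRNPs guide methylation of the precursor and box H/ACA snoRNPs guide pseudouridylation, the small subunit processome folds and cleaves its 5' part, and further factors build the large subunit from its 3' part. RNase P matures the 5' end of tRNA, RNase MRP cleaves the rRNA precursor, and most of their protein subunits are shared. Messenger RNAs of all these proteins are made by RNA polymerase II, and at fertilisation the embryo inherits stores of them from the oocyte.

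Values are FPKM, reads per kilobase of gene and scaled to the counted reads of a library, and so remain shares of a library. The length of a gene is that of all its annotated exon bases, such as 1109 for Nop10 and 11955 for Wdr12. Levels and ranks set side by side between genes therefore depend in part on this length. A gene is called changed at a Benjamini-Hochberg adjusted p under 0.05 over all genes tested with limma on log2(FPKM + 1), and a DEG (differentially expressed gene) if it also changed at least 4-fold. Genes with at least 1 FPKM in at least 3 libraries of a table were tested, and all 41 genes passed this in each table. Four-cell libraries held 1136771 to 3101002 reads, which were whole numbers recovered from the FPKM. Two-cell libraries held approximately 4712268 to 10503779 reads and replication libraries 2603946 to 19181387. The column names of the two-cell table do not say which libraries came from early or late two-cell embryos. They fall into a set whose names hold an R (libraries R3, r1 and r2 without and RAm1 to RAm3 with α-amanitin) and a set whose names do not (NT1 to NT3 and Am1 to Am3). As these sets differed, results are also given within each set. In every two-cell and four-cell library the oocyte and embryo marker Dppa3 was at least 689 FPKM. Of the donor markers, Myod1 was below 1 FPKM in all 12 two-cell libraries, and Vim and Lgals1 were detected in all libraries of the 3 tables.

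Promoter sequences of 35 of the 41 genes were found in the RefSeq table (build GRCm38.p6). Shown are the 250 bases before the start sites of the 3 genes that were DEGs in the four-cell experiment and of Nop16, whose change differed most between the two-cell sets. All are written 5' to 3' on the minus strand, and capitals mark matches, on either strand, to 6 searched motifs.
Rpp38 (chr2:3332629-3332878): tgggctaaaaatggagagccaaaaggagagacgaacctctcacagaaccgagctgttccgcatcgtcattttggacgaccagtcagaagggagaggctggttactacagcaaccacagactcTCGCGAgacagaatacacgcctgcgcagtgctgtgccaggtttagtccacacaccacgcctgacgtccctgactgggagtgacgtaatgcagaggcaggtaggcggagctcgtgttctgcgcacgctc
Pop7 (chr5:137502430-137502679): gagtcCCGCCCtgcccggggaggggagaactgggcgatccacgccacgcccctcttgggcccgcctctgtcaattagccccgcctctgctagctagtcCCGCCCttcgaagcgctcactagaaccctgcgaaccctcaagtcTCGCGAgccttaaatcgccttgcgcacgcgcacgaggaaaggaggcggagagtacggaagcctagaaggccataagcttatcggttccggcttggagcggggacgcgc
Wdr3 (chr3:100162408-100162657): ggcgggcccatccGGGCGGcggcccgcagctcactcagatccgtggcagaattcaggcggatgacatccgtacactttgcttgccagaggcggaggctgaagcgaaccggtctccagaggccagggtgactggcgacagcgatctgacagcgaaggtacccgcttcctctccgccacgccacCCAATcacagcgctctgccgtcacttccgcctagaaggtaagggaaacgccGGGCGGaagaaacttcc
Nop16 (chr13:54590075-54590324): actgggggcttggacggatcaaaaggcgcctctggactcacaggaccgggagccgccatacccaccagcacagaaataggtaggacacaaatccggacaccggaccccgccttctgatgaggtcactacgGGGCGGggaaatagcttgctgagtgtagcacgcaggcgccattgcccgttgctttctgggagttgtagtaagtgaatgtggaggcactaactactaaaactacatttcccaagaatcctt

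The motifs do not overlap each other in these 4 sequences. In the coordinates of the deposited tables (mm10), Rpp38 lies on chromosome 2 from 3328949 to 3332643, Pop7 on chromosome 5 from 137501438 to 137502518, Wdr3 on chromosome 3 from 100138180 to 100162407 and Nop16 on chromosome 13 from 54584185 to 54590090, and all but the Wdr3 sequence reach into the 5' end of these gene models. For the counts below, a gene was counted if any of its listed promoters held the motif, while the background is the share of single promoters. The 2 are thus unlike units, and their difference was not tested. The GC box GGGCGG was found before 21 of the 35 genes, against 32.7% of all 32851 promoters in the table. CCGGAAG, the core bound by ETS factors, was found before 8 genes (22.9%, against 6.91%), and CCAAT before 15 (42.9%, against 33.8%). The E-box CACGTG, which Myc binds, was found before 3 genes (8.57%, against 6.02%), and TATAAA before 2 (5.71%, against 12.4%). TCGCGA, which reads the same on both strands, was found before 4 genes (11.4%, against 2.08%), namely Rpp38, Pop7, Nop14 and Nop58. A match describes the letters in this window and was not tested as a binding site.

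Without α-amanitin, the order of the 41 genes was similar in the 3 tables. Across the 41 genes, Spearman's rho of mean FPKM was 0.94 between four-cell and two-cell NT embryos and 0.96 between four-cell NT embryos and the D and DR libraries, which share recipient type and gene lengths. It was 0.89 between two-cell NT embryos and the D and DR libraries. Npm1 (nucleophosmin), Nhp2 and Nop10 (core proteins of box H/ACA snoRNPs) ranked 1, 2 and 3 in each table. Their four-cell means were 1006, 997 and 399.8 FPKM. Of the 41 genes, 36 had a mean of at least 10 FPKM in all 3 tables. The 4 below 10 FPKM in four-cell NT embryos were Fbl, Utp20, Pop1 and Rrp12. In the four-cell table the median of the RNase P subunits was 73.5 FPKM, of the processome 32.6 FPKM and of large subunit assembly 17.8 FPKM. Single genes moved between tables, such as Rpp30 with a rank of 4 in four-cell and 11 in two-cell NT embryos and Ddx10 with 26 and 15, but the tables were normalised separately and this was not tested.

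In four-cell NT embryos, the libraries with and without α-amanitin overlapped for 32 of the 41 genes, while Rpp38, Pop7, Wdr3 and Utp15 were higher without it. These 4 of 41 were called higher, against 11.1% of the 9884 genes tested, and 3 were DEGs, against 6.2%. None was called lower, against 1.13%. The groups did not overlap for 9 genes, all higher without α-amanitin (27.6% of genes tested, and 7.56% lower). The median log2 change of the 41 genes, α-amanitin (−) minus (+), was 0.31, and that of all genes tested was 0.37. With libraries scaled by the median of ratios the medians were 0.01 and 0.13, and with limma-voom on the recovered reads -0.06 and 0.11, so that the sign of the median of the 41 genes was not fixed. Over all genes, 1093 were called higher and 112 lower, and 760 and 223 with median-of-ratios scaling.

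**Figure D1:**
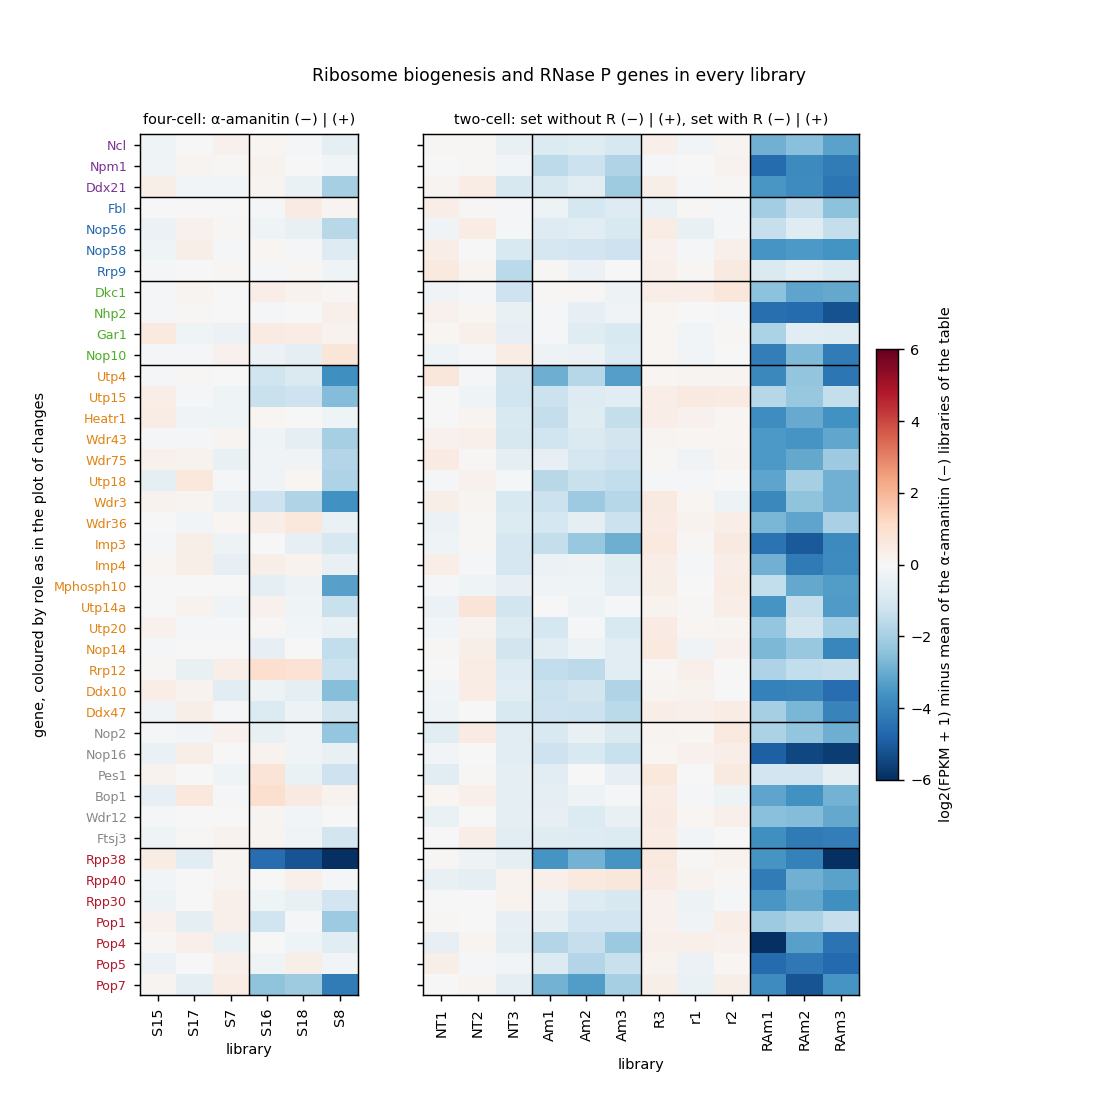
Level of each gene (rows, ordered by role) in each four-cell and two-cell library (columns), as log2(FPKM + 1) minus the mean of the α-amanitin (−) libraries of the same table, with blue for lower and red for higher. The colour scale ends at 6, and Rpp38 in library S8 and Pop4 in library RAm1 lie beyond it. Rpp38 and Pop7 are blue in all α-amanitin (+) libraries, and nearly all genes are blue in RAm1 to RAm3.

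Rpp38, an RNase P and MRP subunit on chromosome 2, was at 217, 100.2 and 178 FPKM in the 3 α-amanitin (−) libraries S15, S17 and S7. With α-amanitin it was at 5.57, 3.38 and 0 FPKM in S16, S18 and S8, which stands for 18, 4 and 0 reads against 516, 191 and 401. The groups were far apart, and the mean with α-amanitin was 1.81% of that without. The log2 change was 5.69 ± 0.66 (SE, adjusted p = 0.00362, limma), and Rpp38 was called under each of the 12 alternative settings, with adjusted p from 0.00198 to 0.0319.

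Pop7, a further shared subunit, was at 79.6, 46.0 and 95.0 FPKM without and 12.2, 15.5 and 2.91 FPKM with α-amanitin. All libraries without the inhibitor lay above all those with it, and the mean with α-amanitin was 13.9% of that without (log2 change 2.91 ± 0.55, adjusted p = 0.0154, limma). Pop7 was not called without S15, without S7 or without the filter on low FPKM, where adjusted p reached 0.0797.

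The other 5 RNase P subunits were not called. Rpp30 was at 227, 275 and 338 FPKM without and 233, 205 and 123 FPKM with α-amanitin, and its groups overlapped. Pop4 was at 99.4, 118 and 72.7 FPKM without and 95.3, 80.0 and 58.3 FPKM with it. Pop5 was at 45.3, 59.7 and 72.1 FPKM without and 47.8, 73.9 and 51.3 FPKM with it. Groups of both these subunits overlapped, as did those of the remaining pair, which were the lowest of the 7. Rpp40 was at 9.60, 10.5 and 12.3 FPKM without and 10.6, 13.6 and 9.72 FPKM with α-amanitin, and Pop1 at 4.39, 2.16 and 4.63 against 1.02, 3.25 and 0 FPKM. Thus within one enzyme the mean FPKM with α-amanitin ran from 1.81% of that without for Rpp38 to 105% for Rpp40.

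**Figure D2:**
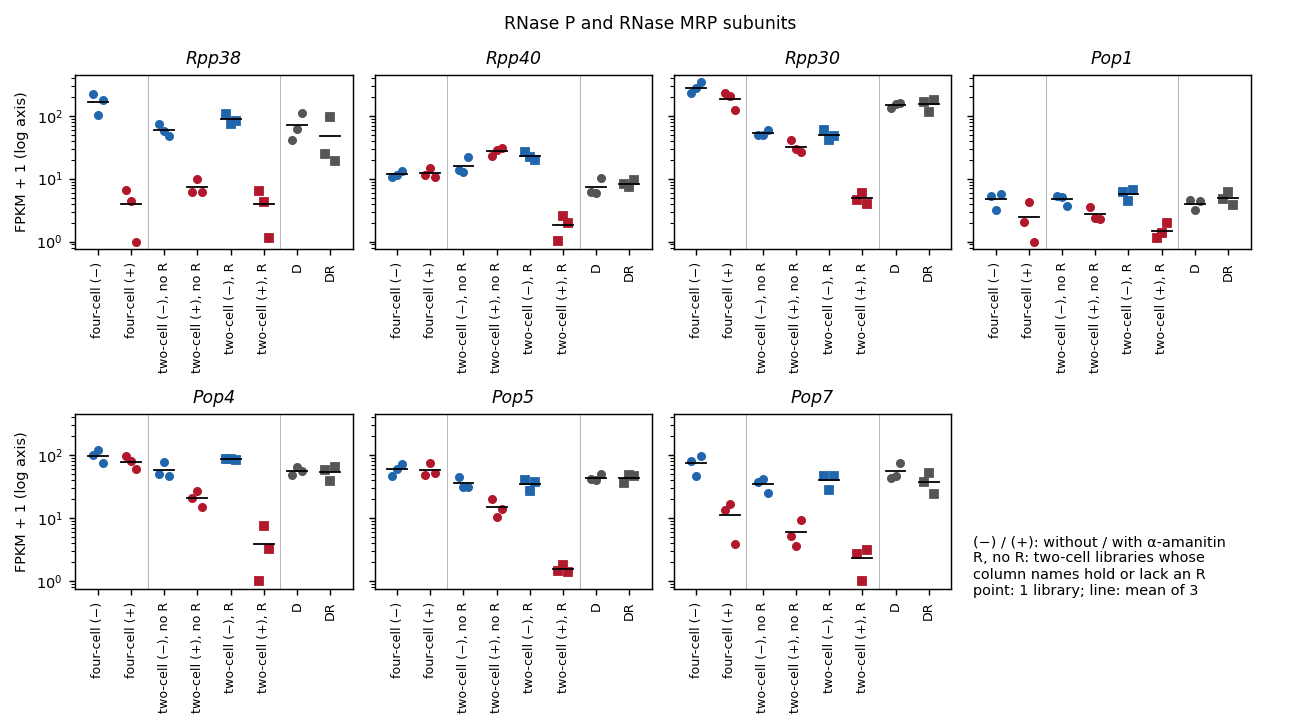
FPKM + 1 (log axis) of the 7 RNase P and MRP subunits in every library of the 3 tables. Points are libraries, lines are means of 3, red marks libraries with α-amanitin, and squares mark the two-cell set with R and the group DR. Rpp38 and Pop7 are low in every red group, while Rpp40, Rpp30, Pop4 and Pop5 reach a few FPKM or less with α-amanitin in the two-cell set with R.

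Among the small subunit processome genes, 2 of 17 were called. Wdr3, of the UTPB subcomplex, was at 25.1, 24.2 and 16.7 FPKM without and 8.47, 5.39 and 0.844 FPKM with α-amanitin. The groups did not overlap (log2 change 2.23 ± 0.59, adjusted p = 0.0432, limma), but it was called in only 3 of 12 alternative settings. Of the exon bases of Wdr3, 15.7% overlap Spag17 on the other strand, and the libraries do not mark strand. Utp15, of the UTPA subcomplex that joins the rRNA precursor early, was at 23.6, 15.9 and 14.4 FPKM without and 6.40, 6.92 and 2.05 FPKM with it (log2 change 1.72 ± 0.46, adjusted p = 0.0457, limma). It was called in 2 of 12 alternative settings.

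Utp4, also of UTPA, was at 87.0, 99.6 and 96.5 FPKM without and 41.02, 52.0 and 6.38 FPKM with α-amanitin. Its groups did not overlap, and it was not called (log2 change 1.90 ± 0.65, adjusted p = 0.0907, limma), although it was called without S8. Wdr43, the highest processome gene, was at 185, 192 and 224 FPKM without and 168, 135 and 49.1 FPKM with α-amanitin. Rrp12, which takes part in export of small subunit precursors and was the lowest, was at 2.64, 1.52 and 3.53 FPKM without and 5.97, 5.30 and 0.437 FPKM with it. The groups of Wdr43 did not overlap and those of Rrp12 did, and neither was called. The median log2 change of the 17 genes was 0.66.

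No nucleolar hub, snoRNP or large subunit gene was called. Npm1 was at 865, 1114 and 1039 FPKM without and 1167, 1004 and 885 FPKM with α-amanitin, a log2 change of -0.02 ± 0.19. Ddx21, a nucleolar RNA helicase, was at 47.1, 33.5 and 32.7 FPKM without and 42.5, 28.2 and 8.63 FPKM with it. Both overlapped between groups, as did Ncl (nucleolin).

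In the box C/D group, Nop56 was the highest, with 61.5, 94.5 and 80.5 FPKM without and 65.2, 56.2 and 23.6 FPKM with α-amanitin. Fbl (fibrillarin, the methyltransferase of these particles) was the lowest, with 8.03, 7.92 and 8.35 FPKM without and 7.66, 11.7 and 9.12 FPKM with it. Both groups overlapped. The box H/ACA genes had a median log2 change of -0.15, and all 4 had a mean with α-amanitin of at least 103% of that without. Nhp2 was at 941, 1038 and 1012 FPKM without and 923, 1016 and 1219 FPKM with it, and Gar1, the lowest, at 21.8, 11.5 and 10.8 against 19.9, 19.5 and 16.5 FPKM.

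For large subunit assembly, Nop16, a factor of early large subunit precursors, was at 101, 171 and 133 FPKM without and 154, 115 and 96.2 FPKM with α-amanitin. Pes1, of the PeBoW complex, was at 16.5, 14.6 and 11.9 FPKM without and 25.2, 10.5 and 5.41 FPKM with it. Groups of both overlapped.

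Library S8 weighed on these values. It held the lowest of the 3 α-amanitin (+) values for 36 of the 41 genes, and the median log2 change of the 41 genes was 0.04 without S8 and 0.65 without S16. S8 also had the highest summed donor markers, through Lgals1 at 1832 and S100a4 at 1031 FPKM, against 69.3 to 543 and 2.21 to 120 FPKM in the other 5 libraries. Of the 13 donor markers above 0 in any library, 7 were highest in S8 and 4 in S18, among them Acta2 (76.3 FPKM in S8 and 276 FPKM in S18) and Myod1 (0 and 7.09 FPKM). The summed level of the 14 donor markers was 179 to 2960 FPKM with and 186 to 686 FPKM without α-amanitin, and that of the 10 oocyte and embryo markers 12206 to 16108 and 8729 to 9923 FPKM. The donor gene Col1a1 was at 0 in all 6 libraries. The part of these differences in the results was not tested.

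In two-cell NT embryos most of the genes were higher without α-amanitin. Of the 41 genes, 36 were called higher, against 38.9% of the 17196 genes tested, and 21 were DEGs, against 11.1%. None was called lower, against 8.51%. For 19 genes the 6 libraries without α-amanitin all lay above the 6 with it, against 16.3% of genes tested. The median log2 change was 2.04, and that of all genes tested was 0.67. It was 1.30 against 0.24 with median-of-ratios scaling and 3.19 against 1.49 with scaling to spike-in RNA, whose share of reads was 2.38% to 6.26% without and 6.54% to 11.3% with α-amanitin. Over all genes, 6694 were called higher and 1464 lower, and 3768 and 2443 with median-of-ratios scaling, where 25 of the 41 genes were called. The genes not called were Dkc1, Pes1, Rpp40, Rrp9 and Utp14a.

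Of the 7 RNase P subunits, 6 were called and 5 were DEGs. Rpp38 had a lowest, median and highest value of 46.6, 73.9 and 106 FPKM without and 0.137, 5.14 and 9.05 FPKM with α-amanitin, with a log2 change of 3.92 ± 0.47 (adjusted p = 8.53e-05, limma). Pop7 had 24.3, 38.2 and 46.1 FPKM without and 0, 2.35 and 8.13 FPKM with it (3.44 ± 0.45, adjusted p = 0.000157, limma). Neither overlapped between groups, and both were called in all 18 alternative settings.

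Pop4 had a lowest, median and highest value of 46.1, 80.1 and 86.5 FPKM without and 0, 10.1 and 26.1 FPKM with α-amanitin. Pop5 had 25.8, 33.6 and 43.4 against 0.374, 5.09 and 18.8 FPKM, and Rpp30 39.8, 49.0 and 59.0 against 2.98, 15.2 and 39.7 FPKM. These 3 DEGs did not overlap between groups, with log2 changes of 3.19 ± 0.67, 2.90 ± 0.65 and 2.04 ± 0.58. Pop1 had 2.64, 4.198 and 5.66 against 0.139, 1.14 and 2.57 FPKM and was called at a log2 change of 1.37 ± 0.30. Rpp40 differed from its partners, with 11.6, 19.8 and 25.4 FPKM without and 0.0162, 11.7 and 29.3 FPKM with α-amanitin, and its groups overlapped.

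Of the 17 processome genes, 16 were called and 9 were DEGs. Imp3, of the complex that binds the U3 snoRNA, had a lowest, median and highest value of 109, 231 and 334 FPKM without and 5.76, 21.5 and 82.7 FPKM with α-amanitin (log2 change 3.32 ± 0.57). Utp4 had 19.4, 48.1 and 69.6 against 1.20, 4.11 and 12.3 FPKM (3.09 ± 0.46), and the helicase gene Ddx10 21.5, 38.0 and 48.0 against 0.503, 5.34 and 15.9 FPKM (2.81 ± 0.60). These 3 did not overlap between groups.

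Wdr3 had a lowest, median and highest value of 7.15, 16.2 and 21.9 FPKM without and 0.0609, 2.15 and 5.37 FPKM with α-amanitin, and Utp18, also of UTPB, 24.1, 25.1 and 31.5 against 2.00, 6.60 and 9.84 FPKM. The helicase gene Ddx47 had 7.57, 16.7 and 20.6 against 0, 3.59 and 5.74 FPKM. None of these 3 overlapped between groups either. Heatr1, of UTPA, had 6.06, 14.0 and 16.7 against 0.0135, 2.32 and 7.25 FPKM, Wdr43 64.8, 138 and 158 against 10.1, 33.8 and 67.6 FPKM, and Imp4 11.5, 27.96 and 32.8 against 0.325, 8.39 and 19.7 FPKM. The last 3 were DEGs whose groups overlapped, through library NT3, which was the lowest without α-amanitin for each. Wdr75 (28.01, 42.8 and 58.8 against 2.83, 12.7 and 29.1 FPKM) and Wdr36 (7.15, 14.7 and 18.8 against 0.575, 3.75 and 8.39 FPKM) were called at log2 changes of 1.90 and 1.80, below 4-fold.

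All 3 nucleolar hubs were called. Npm1 had a lowest, median and highest value of 812, 898 and 1065 FPKM without and 36.0, 162 and 374 FPKM with α-amanitin (log2 change 2.88 ± 0.58). Ddx21 had 15.6, 34.7 and 43.0 against 0.636, 4.19 and 19.4 FPKM (2.56 ± 0.59), and Ncl 61.6, 88.6 and 106 against 8.16, 28.3 and 51.1 FPKM (1.86 ± 0.49). Only Ddx21 overlapped between groups.

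Of the snoRNP genes, Nop58 (box C/D, with 15.1, 33.2 and 40.3 against 1.60, 6.999 and 14.4 FPKM), Nhp2 (box H/ACA, with 406, 582 and 667 against 14.2, 207 and 507 FPKM) and Nop10 (box H/ACA, with 442, 491 and 716 against 27.6, 191 and 423 FPKM) were DEGs. Nhp2 overlapped between groups. In large subunit assembly, Nop16 had 153, 249.9 and 319 FPKM without and 3.57, 50.9 and 126 FPKM with α-amanitin (log2 change 3.25 ± 0.83). Ftsj3, an rRNA methyltransferase, had 10.9, 18.3 and 25.5 against 0, 5.25 and 10.5 FPKM (2.40 ± 0.66). Both were DEGs without overlap.

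The wide spread of the α-amanitin (+) values went with the column sets. In a fit with 4 group means, 40 of the 41 genes were called higher without α-amanitin in the set with R (54.9% of genes tested) and 34 of these were DEGs (27.7%). Their median log2 change was 3.30, against 1.05 over all genes, and with median-of-ratios scaling 36 were called, while Gar1 and Nop56 had changes below 0. In the set without R, 13 were called (13.4%), 3 of them DEGs (2.87%), and the median was 0.79 against 0.24. This count was 7 with median-of-ratios scaling, 31 with spike-in scaling (35.1% of genes tested), and 7 to 18 without single libraries. The mean FPKM with α-amanitin, as a percentage of that without, had a median of 7.91% in the set with R and 54.4% in the set without R. These are ratios of library shares. With spike-in scaling the median log2 change was 4.85 in the set with R and 1.52 in the set without R. The groups did not overlap for all 41 genes in the set with R (58.1% of genes tested), and for 21 in the set without R. Of these, 20 were above (24.7%) and 1, Rpp40, was below its α-amanitin (+) libraries (10.4%).

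**Figure D3:**
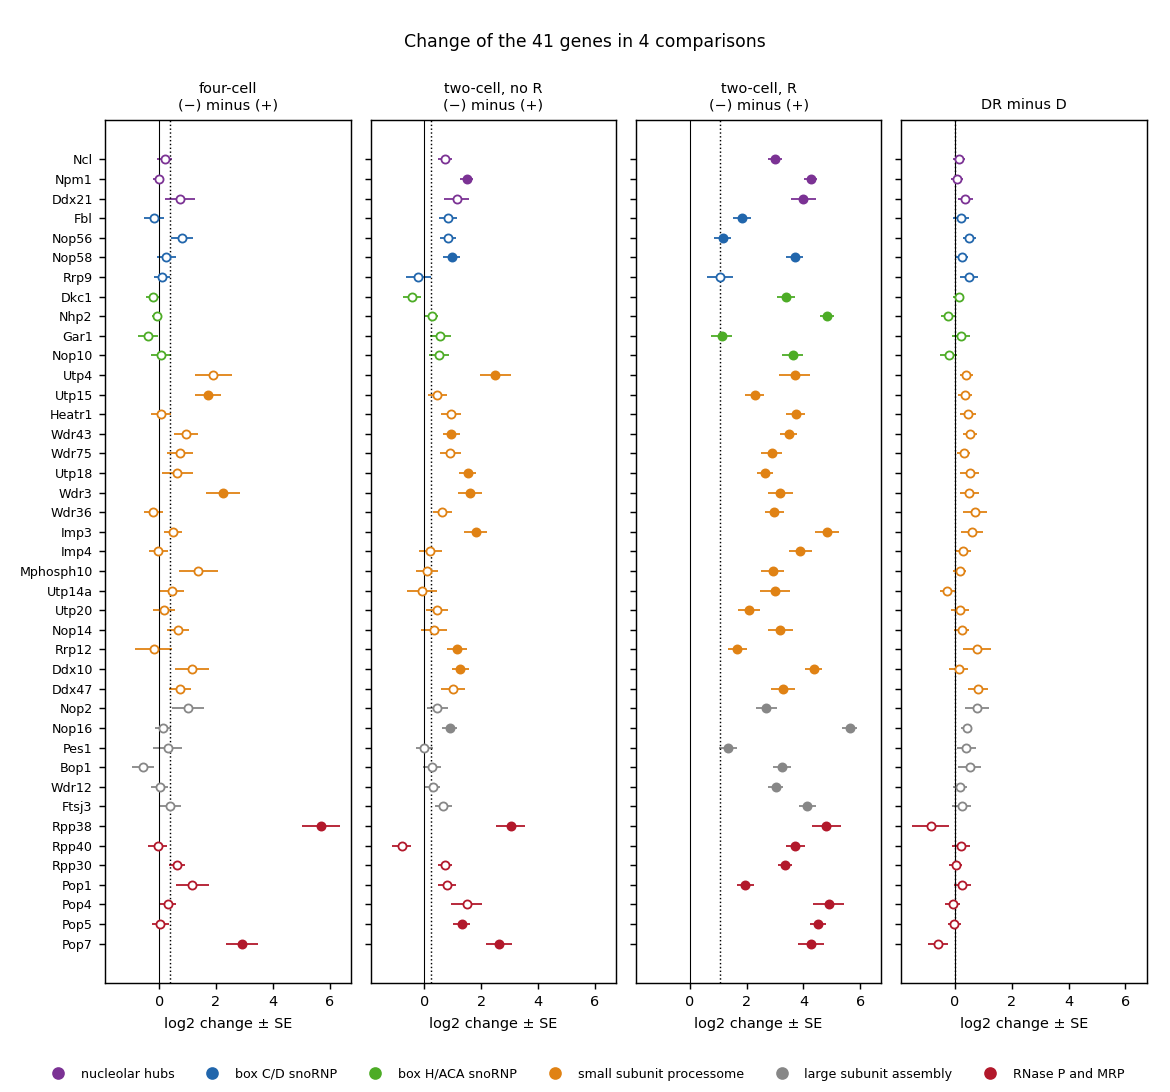
Log2 change ± SE of each of the 41 genes, coloured by role, in the four-cell experiment, in each set of two-cell libraries and between DR and D. Filled points are genes called (adjusted p under 0.05), solid lines mark 0 and dotted lines the median of all genes tested. In the set with R every point but that of Rrp9 is filled, and between DR and D none is.

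The difference of the change between sets, tested as an interaction, was called for 32 of the 41 genes, all with the larger change in the set with R (36% of genes tested), and its median was 2.63 against 0.76 over all genes. Nop16 was at 211, 239 and 153 FPKM in NT1 to NT3 and 102, 126 and 94.6 FPKM in Am1 to Am3, but at 260.3, 287 and 319 FPKM in R3, r1 and r2 and 7.06, 4.48 and 3.57 FPKM in RAm1 to RAm3. The RAm libraries stood far below all others. The difference was 4.74 ± 0.36 (adjusted p = 2.36e-06, limma).

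Nhp2 was at 667, 601 and 406 FPKM in NT1 to NT3 and 507, 391 and 484 FPKM in Am1 to Am3, where the groups overlapped. In the set with R it was at 611, 563 and 540.3 FPKM without and 23.1, 21.6 and 14.2 FPKM with α-amanitin, and the difference between sets was 4.57 ± 0.34 (adjusted p = 1.99e-06, limma). Dkc1 (dyskerin, the pseudouridine synthase) showed the same pattern, with 73.2, 80.6 and 34.8 against 87.8, 86.7 and 66.7 FPKM in the set without R and 109.6, 113 and 136 against 14.5, 8.62 and 9.20 FPKM in the set with R. The partner proteins Nop10 and Gar1 had differences of 3.12 ± 0.51 and 0.57 ± 0.51, of which that of Gar1 was not called (adjusted p = 0.395, limma).

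Rpp40 was at 12.6, 11.6 and 20.9 FPKM without and 21.9, 27.4 and 29.3 FPKM with α-amanitin in the set without R, all higher with the inhibitor, which was not called (log2 change -0.80 ± 0.34, adjusted p = 0.119, limma). In the set with R it was at 25.4, 20.8 and 18.9 FPKM without and 0.0162, 1.51 and 0.996 FPKM with it. The difference was 4.51 ± 0.48 (adjusted p = 2.32e-05, limma). Npm1 lay between, at 309, 374 and 260.1 FPKM in Am1 to Am3 and 36.0, 64.2 and 48.3 FPKM in RAm1 to RAm3, and it was called in both sets.

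The 3 genes that were DEGs in both sets were Rpp38, Pop7 and Utp4. Rpp38 was at 73.9, 56.6 and 46.6 FPKM in NT1 to NT3 and 5.09, 9.05 and 5.19 FPKM in Am1 to Am3 (log2 change 3.03 ± 0.50). In the set with R it was at 106, 73.9 and 83.2 against 5.28, 3.26 and 0.137 FPKM (4.81 ± 0.50). With α-amanitin it was thus under 10 FPKM in each of the 6 libraries of both sets. The interaction was not called (1.79 ± 0.71, adjusted p = 0.0576, limma).

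Pop7 was at 36.5, 39.9 and 24.3 against 4.17, 2.58 and 8.13 FPKM in the set without R and 44.9, 27.0 and 46.1 against 1.69, 0 and 2.12 FPKM in the set with R, with an interaction of 1.66 ± 0.64 (adjusted p = 0.0523, limma). Utp4 was at 69.6, 41.4 and 19.4 against 4.74, 12.3 and 3.48 FPKM and at 47.4, 48.9 and 49.2 against 1.99, 7.55 and 1.20 FPKM. No α-amanitin (+) library of either gene reached the lowest library without it. The other 6 genes without a called interaction were Fbl, Gar1, Nop56, Rrp12, Rrp9 and Wdr3, and these p-values do not show that their changes were equal.

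**Figure D4:**
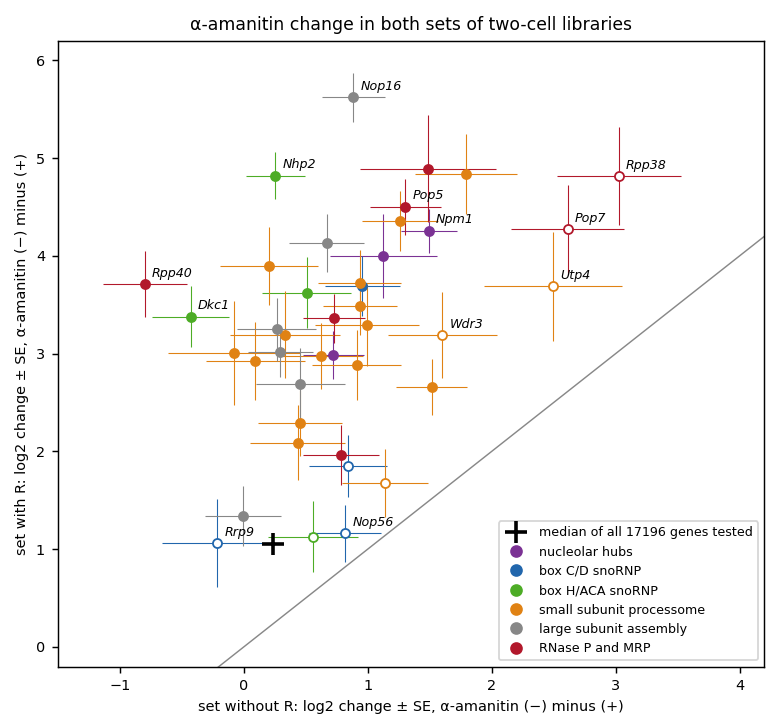
Log2 change ± SE of each gene in the two-cell set without R (horizontal) and the set with R (vertical), α-amanitin (−) minus (+), with the line of equal change. Filled points have a called difference between the sets, and the cross is the median of all genes tested, at 0.24 and 1.05. All 41 points lie above the line, with Rpp38, Pop7 and Utp4 farthest to the right and Nop16 highest.

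The sets were also compared directly. Between RAm1 to RAm3 and Am1 to Am3, 34 of the 41 genes were called lower in the set with R (43.1% of genes tested), with a median log2 difference of -2.24 against -0.70 over all genes. With median-of-ratios scaling 24 were called lower, with medians of -1.20 and -0.18, and over all genes 4247 were called lower and 3440 higher, against 7404 and 1881 without it. Between R3, r1 and r2 and NT1 to NT3, limma called 0 of 41 genes (1.37% of genes tested higher and 1.08% lower), and 4 had an unadjusted p under 0.05 (19.3%). Of the 41 genes, 34 had a difference above 0 (54.8% of genes tested), with a median of 0.33 against 0.07, or 0.02 against 0.01 without NT3. The groups did not overlap for 9 genes, all higher in the set with R (15.4%, and 11.7% lower). With spike-in scaling, 10 of the 41 genes were called higher there in the set with R, against 18.2% of genes tested. The comparisons share libraries with those above.

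Marker genes moved with the sets as well. The summed oocyte and embryo markers were 1544 to 3404 FPKM in RAm1 to RAm3, 6923 to 8088 FPKM in Am1 to Am3 and 7450 to 12350 FPKM without α-amanitin. The sums include Dppa3, whose log2 difference between RAm1 to RAm3 and Am1 to Am3 was -2.97. Between RAm1 to RAm3 and Am1 to Am3, 7 of these 10 markers were called higher and 2, Dppa3 and Zp3, lower. Bmp15 was at 107 to 205 FPKM in RAm1 to RAm3 against 3.54 to 16.5 FPKM in Am1 to Am3, and Zp3 at 11.7 to 29.5 against 42.7 to 63.6 FPKM. With α-amanitin against without, 7 were called higher and 2 lower in the set with R, and 5 higher and none lower in the set without R. The summed donor markers were 1334 to 2161 FPKM in RAm1 to RAm3 and 3810 to 4247 FPKM in Am1 to Am3. Without α-amanitin they were 204 to 619 FPKM in the set with R and 1329 to 5343 FPKM in the set without R, so that in the set with R their sum too moved with α-amanitin. There, of 9 donor markers tested, Lgals1 (log2 change -2.49 ± 0.49) and S100a4 (-1.75 ± 0.48) were called higher with the inhibitor, and Col3a1 (2.89 ± 0.48) and Fn1 (2.25 ± 0.49) higher without it. In the set without R, S100a4 (-1.67 ± 0.48) was called higher with it, and Fn1 (3.29 ± 0.49), Col3a1 (3.27 ± 0.48) and Col1a2 (1.63 ± 0.49) higher without it. Of the donor markers, Myod1, Myf5, Thy1 and Tagln were at 0 in RAm1 to RAm3. Spike-ins took 8.77% to 11.3% of reads in RAm1 to RAm3 and 6.54% to 8.93% in Am1 to Am3. The part of these differences in the results was not tested, nor is it known which set came from early embryos.

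The calls of both experiments were set side by side. The 4 genes called in four-cell NT embryos were all called in two-cell NT embryos (4 of 4 and 4 of 36), where most of the 41 genes were, and Rpp38, Pop7 and Wdr3 were DEGs in both (3 of 3 and 3 of 21). In the two-cell set without R, 3 of the 4 were called (3 of 13), without Utp15, and Rpp38 and Pop7 were DEGs. For Npm1, Nhp2, Nop16 and Dkc1 the mean FPKM with α-amanitin, as a percentage of that without, was 101%, 106%, 90.4% and 118% in four-cell NT embryos, but 5.24%, 3.44%, 1.74% and 9.04% in the two-cell set with R. In the two-cell set without R it was 35.8%, 82.5%, 53.5% and 128%. These percentages are ratios of library shares, and no spike-ins are listed for the four-cell libraries, so they do not give the amount of RNA that remained. As the tables were normalised separately, the difference between stages was not tested.

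Between DR and D, none of the 41 genes was called. In limma 0 of 14570 genes were called in either direction (0%), and 0 of the 41 genes had an unadjusted p under 0.05, against 6.16% of genes tested. The groups did not overlap for 4 genes, Nop56, Wdr43, Wdr75 and Nop16, all higher in DR (8.21% of genes tested). Nop16 was at 119, 116 and 123 FPKM in DR and 88.01, 89.96 and 91.8 FPKM in D (log2 change 0.41 ± 0.18, adjusted p = 0.788, limma), and Wdr43 at 294, 171 and 214 against 154, 166 and 137 FPKM (0.54 ± 0.24).

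The largest log2 changes in size were those of Rpp38 and Ddx47. Rpp38 was at 24.0, 96.4 and 18.1 FPKM in DR and 40.2, 59.9 and 109 FPKM in D, with broad overlap (log2 change -0.86 ± 0.65, adjusted p = 0.819, limma). Ddx47 was at 25.7, 12.2 and 16.7 against 10.5, 12.6 and 6.36 FPKM (0.81 ± 0.37). Pop7, at 35.7, 50.04 and 22.7 against 42.2, 46.0 and 75.1 FPKM, overlapped too. The remaining RNase P subunits had log2 changes between -0.07 and 0.26. Of the 41 genes 34 had a change above 0, against 51.5% of genes tested, and the median was 0.24 against 0.02, but with spike-in scaling, on 0.0181% to 0.776% of reads, both medians were negative (-1.37 and -1.41). Depth also differed between the groups, with approximately 2603946 to 4252278 reads in DR and 6059974 to 19181387 in D. The part of depth in this shift was not tested.

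The other genes of these pathways, taken from lists of known factors, were described by the same test. In four-cell NT embryos, α-amanitin (−) minus (+), 1 of 17 genes of RNA polymerase I transcription was called higher, 3 of 35 other small subunit factors, 10 of 53 other large subunit factors, 0 of 21 snoRNP assembly and exosome genes and 1 of 5 other RNase P and MRP parts. Over all genes tested 11.1% were called higher. None of the listed genes was called lower, against 1.13% of all genes. Among the called genes of each list, those with the largest changes were Rrp36 (2.82 ± 0.45) and Nol11 (2.03 ± 0.33) of the small subunit, Rrs1 (2.81 ± 0.53) and Noc3l (2.01 ± 0.45) of the large subunit, Polr1b, a core subunit of RNA polymerase I (1.68 ± 0.43), and the RNase P subunit gene Rpp25l (4.28 ± 0.70, adjusted p = 0.0102, limma). Changes that were not called could be larger, up to 2.44 among the genes of RNA polymerase I transcription. Rpp25l had mean levels of 57.5 FPKM without and 3.37 FPKM with α-amanitin, and was thus the third RNase P subunit gene with a DEG call beside Rpp38 and Pop7.

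In two-cell NT embryos the counts were 16 of 17, 30 of 36, 46 of 53, 16 of 21 and 3 of 5, with none called lower, against 38.9% of all genes called higher and 8.51% lower. Within the set without R they were 1 of 17, 9 of 36, 9 of 53, 7 of 21 and 2 of 5, against 13.4%, and within the set with R 16 of 17, 33 of 36, 52 of 53, 19 of 21 and 3 of 5, against 54.9%. None was called lower in the set without R, and in the set with R 1 snoRNP assembly or exosome gene and 1 other RNase P part were. Pooled median log2 changes were 1.51, 2.07, 1.78, 1.95 and 2.26, against 0.67 over all genes. Rpp25 (4.57 ± 0.71) and Rpp25l (3.38 ± 0.50) had the largest called changes among the RNase P parts, Utp23 (3.74 ± 0.74) and Rrp36 (3.05 ± 0.44) among the small subunit factors and Rpf2 (3.76 ± 0.88) and Nifk (3.55 ± 0.69) among the large subunit factors. Znhit3, an assembly factor of box C/D snoRNPs, had 4.44 ± 1.18 and Exosc3, of the RNA exosome, 3.60. Znrd1 and Polr1d, both subunits of RNA polymerase I, had 3.18 and 3.05. The pooled value of Znrd1 came from the set with R, where the change was 6.59 ± 0.29, while in the set without R it was -0.22 ± 0.29 and not called, and Polr1d had 5.18 and 0.92, the latter not called. The other genes named in two-cell NT embryos were called in both sets, with larger values in the set with R, such as 7.74 against 1.14 for Znhit3 and 6.12 against 1.41 for Rpf2. Between DR and D, limma called 0 genes of these lists.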

How the data were processed

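Per the labels and the study's methods, RNA of pooled embryos was amplified as cDNA, sequenced after Nextera library preparation, trimmed with Trimmomatic, Trim Galore and cutadapt, mapped with STAR to mm10 and counted with featureCounts. The authors deposited FPKM per gene and library, and these were used as deposited. Multiplied by gene length they sum to the same total in every library, with ERCC spike-in RNA included in the two-cell and replication tables, which alone list it. In the four-cell table they are whole reads, and in the others 40.1% to 50.4% of values are whole (tolerance 0.001), so no count model was run there. The four-cell columns read as α-amanitin (−) are named PBS. In the replication table, 4 columns were not used, as their names match no sample, nor were the oryx experiment and the authors' comparisons.

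log2(FPKM + 1) was tested with limma 3.58.1 (R 4.3.3, mean-variance trend, Benjamini-Hochberg over all genes tested), with the groups as labelled. The scripts were tested on simulated data. Alternatives were a pseudocount of 0.1, no filter on low FPKM, median-of-ratios and spike-in scaling, limma-voom on four-cell reads, a replicate block and leaving out each library. Genes given with values were the DEGs of the four-cell and pooled two-cell comparisons, up to 3 further called genes with the largest changes in each, the highest and lowest gene of each role in four-cell NT embryos and all RNase P subunits. In the pooled two-cell comparison the values are the lowest, median and highest. Not all DEGs within the column sets are given with values, such as Bop1. Of the other lists the 2 called genes with the largest changes were named. The genes and lists were chosen with earlier results of these data known. Replicates are embryo pools that the study's figure legends call independent. The column sets were used after the values were seen. Intervals for single libraries are not given, as cDNA was amplified without molecular identifiers.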

Additional observations from a re-analysis of the deposited data

Results flagged for a closer look

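The change with α-amanitin differed between the sets of two-cell libraries for 32 of the 41 genes. Among them were Nop16 (4.74 on the log2 scale), Nhp2 (4.57), Rpp40 (4.51) and Dkc1 (3.81), each larger in the set with R.

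Among 82 groups of 6 two-cell values (41 genes without and with α-amanitin), 3 had a library far from the rest by Dixon's test. This is no more than the about 1 in 20 that chance gives, and each group mixes both column sets, which differed, so nothing is read from these 3. These were Wdr43 without α-amanitin, lowest in NT3 at 64.8 FPKM, Utp18 without α-amanitin, highest in NT2 at 31.5 FPKM, and Rrp12 with α-amanitin, highest in Am3 at 2.38 FPKM.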

How the results depend on the processing

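In four-cell NT embryos the 4 calls fell to 2 with a pseudocount of 0.1, with median-of-ratios scaling, with limma-voom on recovered reads and with libraries S15 to S18 alone, where Rpp38 and Pop7 remained, and to 1 (Rpp38) with no filter. Leaving out a library gave 1 to 4 calls (1 without S15 or S7, 2 without S18 or S17). Changes that were not called reversed for Pop4 with median-of-ratios scaling (-0.0013) and voom (-0.064), for Pop5 with these (-0.27 and -0.26), with S15 to S18 alone (-0.19) and without single libraries (-0.12 to 0.23), and for Rpp40 without single libraries (-0.15 to 0.076). In two-cell NT embryos there were 29 to 38 calls of 41 without single libraries and 25 to 41 under the other settings, and 25 of the 36 genes were called under all of them. With the replicate block (column set and number) 34 genes were called, and with the column set as a block 38. Same-numbered libraries had correlations of deviations of 0.01 to 0.07, so the numbers were not read as pairs. No paired analysis by the label numbers was possible in the other tables because the four-cell columns carry other numbers than the titles and the D columns share only 1 number with the DR columns. Adjacent four-cell column numbers (S7 and S8, S15 and S16, S17 and S18) as a replicate block, tried after the data were seen, left 4 calls, with correlations of deviations of 0.17, 0.069 and 0.027. In the set without R the 13 calls became 7 with a pseudocount of 0.1 and with median-of-ratios scaling, 8 with no filter, 31 with spike-in scaling and 7 to 18 without single libraries. They were 39 to 41 without single libraries in the set with R, where Gar1 (-0.087) and Nop56 (-0.19) reversed with median-of-ratios scaling. Called interactions were 28 to 34 without single libraries and 23 with median-of-ratios scaling. Between sets, libraries with α-amanitin gave 31 to 35 calls without single libraries, and those without it 0, or 10 with spike-in scaling. Between DR and D all settings gave 0 calls, and Ddx47 reversed with spike-in scaling (-0.88). Over all genes, higher calls ranged from 57 (without S7) to 1362 (without S16) in four-cell and from 3768 (median-of-ratios) to 12276 (spike-in scaling) in two-cell NT embryos. In the set without R they were 2308 (786 lower), and 1089 (831 lower) with median-of-ratios scaling. In the set with R they were 9443 (2400 lower), and 6290 (4276 lower). Causes were not tested. Limma-voom was not run on the two-cell and replication tables. In the four-cell libraries, which were the shallowest, Pop1 had 0 to 38 and Rrp12 3 to 80 reads, and the part of depth in their results was not tested.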

Other observations

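The share of reads of Rpph1, the RNA component of RNase P and a transcript of RNA polymerase III, moved against the protein genes in the two-cell set with R. Its mean there was 0.857 FPKM without and 6.42 FPKM with α-amanitin (log2 change -2.08 ± 0.49, adjusted p = 0.00235, limma), higher with the inhibitor. In the set without R it was 5.47 FPKM without and 1.43 FPKM with it, in the direction of the protein genes, and was not called (1.17 ± 0.49, adjusted p = 0.116, limma). In four-cell NT embryos the means were 16.98 FPKM without and 14.99 FPKM with it, while the log2 change was -0.13 ± 0.63, of the other sign, as S7 alone was at 34.8 FPKM. These levels are low, and Rpph1 was looked at after its values were seen. How far the amplified cDNA captures this RNA, which is not a messenger RNA, was not tested. Its change was not examined with spike-in scaling, whose factors were 1.62 to 2.16 in RAm1 to RAm3 and 0.449 to 0.534 in R3, r1 and r2.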
